A study of Mus musculus with 77 samples.

Results

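Retinal neuropeptide genes were followed in the retinas of mice with oxygen-induced retinopathy (OIR) and of control mice. The set held 10 genes of 21154 with a symbol on the array, namely Cck, Sst, Npy, Tac1, Tacr3, Vip, Penk, Pdyn, Adcyap1 and Crh. All probes matched to these genes were taken, which gave 11 probes, 2 of them for Pdyn. The genes were chosen by name, with the difference between OIR and control retinas on P17 already known, and that difference is therefore given below as a description and without a test. C57BL/6 pups of the OIR group were kept in 75% oxygen from P7, by litter, and returned to room air on P12, and pups of the control group stayed in 21% oxygen. The retinas were collected on P12 from 13 OIR and 12 control mice, on P17 from 13 and 12, and on P28 from 13 and 14. Both retinas of a mouse were pooled on 1 array, so that each of the 77 arrays stands for 1 mouse. In some groups mice shared a litter, but which ones is not stated, and the p-values treat the mice as independent.

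Most neuropeptides of the retina are made by small populations of amacrine cells, the interneurons of the inner retina, and act as slow modulators beside GABA or glycine. They are cut from longer precursors, stored in dense-core vesicles and sensed by G protein-coupled receptors. Cck encodes cholecystokinin, Sst somatostatin, Npy neuropeptide Y, Tac1 substance P and neurokinin A, Vip vasoactive intestinal peptide, Penk the enkephalins, Pdyn the dynorphins, Adcyap1 the peptide PACAP and Crh corticotropin-releasing hormone. Tacr3 encodes the receptor of neurokinin B, which in the retina is known from bipolar cells. Whole retinas were measured, so that fewer cells of a type and less RNA per cell cannot be told apart.

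Promoter windows of 8 of the 10 genes were found in the RefSeq table of the mouse build GRCm38.p6. The windows of Cck, Tacr3 and Vip are shown because these genes were higher on P28 than on P12 also with the array slide in the model, that of Npy because it was lower, and that of Sst because it holds the full cAMP response element. Each line gives the 120 bases before the start site, 5′ to 3′ on the strand of the gene, and capitals mark TGACG or CGTCA, the half-site of that element on either strand, or the full element TGACGTCA, in which 2 half-sites overlap.
Cck, chr9:121495695-121495814, minus strand: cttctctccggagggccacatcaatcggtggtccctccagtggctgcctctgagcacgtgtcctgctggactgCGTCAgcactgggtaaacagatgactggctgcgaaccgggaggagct
Tacr3, chr3:134828887-134829006, plus strand: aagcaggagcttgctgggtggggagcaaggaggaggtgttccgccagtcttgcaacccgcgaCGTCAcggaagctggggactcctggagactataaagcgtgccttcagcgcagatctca
Vip, chr10:5639098-5639217, plus strand: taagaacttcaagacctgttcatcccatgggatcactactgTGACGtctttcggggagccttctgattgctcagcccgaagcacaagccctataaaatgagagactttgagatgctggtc
Npy, chr6:49822590-49822709, plus strand: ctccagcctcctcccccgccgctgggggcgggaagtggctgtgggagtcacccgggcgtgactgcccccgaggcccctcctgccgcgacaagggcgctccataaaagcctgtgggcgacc
Sst, chr16:23890845-23890964, minus strand: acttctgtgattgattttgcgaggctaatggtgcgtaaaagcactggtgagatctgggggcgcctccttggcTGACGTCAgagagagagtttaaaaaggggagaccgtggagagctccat
Over the full windows, from 250 bases before to 50 bases after the start, the half-site was present in 7 of 10 windows of these genes and in 20.8% of 32851 windows of all genes. By gene this was 6 of 8, since the 2 windows of Adcyap1 overlap and hold the same half-site. The genes without it were Npy, which was lower on P28 in control mice, and Pdyn, which was higher. Whether the half-site goes with the change with age was not tested. The full element was present in 1 of the 10 and in 1.79% of all windows. A match of letters does not show that a factor binds there.

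Each value below is a log2 ratio of the retina to a universal mouse reference RNA hybridized to the same array. The ratio was made from background-corrected signals with an offset of 50 added, which draws dim spots towards 0, and it is called the offset ratio. The sample labels give Cy5 for the retina and Cy3 for the reference. However, 10 of 10 rod photoreceptor genes were brighter in Cy3 on all 77 arrays, with the lowest log2 ratio of Cy3 to Cy5 at 1.04 for Pde6b, and the authors' processed table holds Cy3 over Cy5. Ratios are therefore given as Cy3 over Cy5, opposite to the labels. The rod genes also served as the check of the tissue, since all 10 were well above background on a share of 0.5 or more of the arrays of each group. A ratio belongs to its probe, and levels of different genes were not compared.

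The arrays fell into a bright and a dim class, which was not spread evenly over the groups. On 28 arrays, all of 1 scan day and 4 slides, the 95th percentile of the Cy3 signal lay between 2050 and 6863, against 134.5 to 916 on the other 49 arrays. The bright class held 1 of 13 OIR and 2 of 12 control arrays on P12, 2 of 13 and 3 of 12 on P17, and 11 of 13 and 9 of 14 on P28. The offset draws ratios of dim arrays closer to 0 than those of bright arrays. The comparisons with P28 are therefore also given without the bright arrays, with the slide as a block in the model, or from the retina channel alone, where the log2 Cy3 intensity was quantile normalized between arrays. The slide block does not take out brightness in full. On 1 slide that held both ages, the P12 arrays were dim and the P28 arrays bright. On each of the other slides with both ages, the P12 and P28 arrays were of the same class.

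Among the 10 genes, Cck had the largest difference in the offset ratio between P12 and P28 control mice. In control mice its offset ratio was 0.04 to 1.55 with a median of 0.44 on P12, 1.04 to 2.61 with a median of 1.75 on P17, and 2.22 to 2.93 with a median of 2.54 on P28. In OIR mice it was 0.06 to 0.85 with a median of 0.47 on P12, 0.40 to 1.64 with a median of 0.65 on P17, and 1.12 to 2.77 with a median of 2.39 on P28. All P28 arrays lay above all P12 arrays within each oxygen group, and the P17 arrays of OIR mice overlapped those of P12. The share of all probes without overlap between the ages is not given. Most P28 arrays were of the bright class and most P12 arrays of the dim class. In order, the group means were 2.53 ± 0.22 (SD, n = 14) in P28 controls, 2.22 ± 0.52 (n = 13) in P28 OIR, 1.88 ± 0.51 (n = 12) in P17 controls, 0.79 ± 0.38 (n = 13) in P17 OIR, 0.61 ± 0.50 (n = 12) in P12 controls and 0.43 ± 0.29 (n = 13) in P12 OIR mice. Of these neighbors, P17 control and P17 OIR mice differed by more than the larger of their SDs, and the other 4 pairs did not. That pair is the contrast with which the genes were chosen. For Npy, Penk, Tac1, Tacr3 and Vip a pair of neighboring group means outside that contrast also differed by more than the larger SD.

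**Figure D1:**
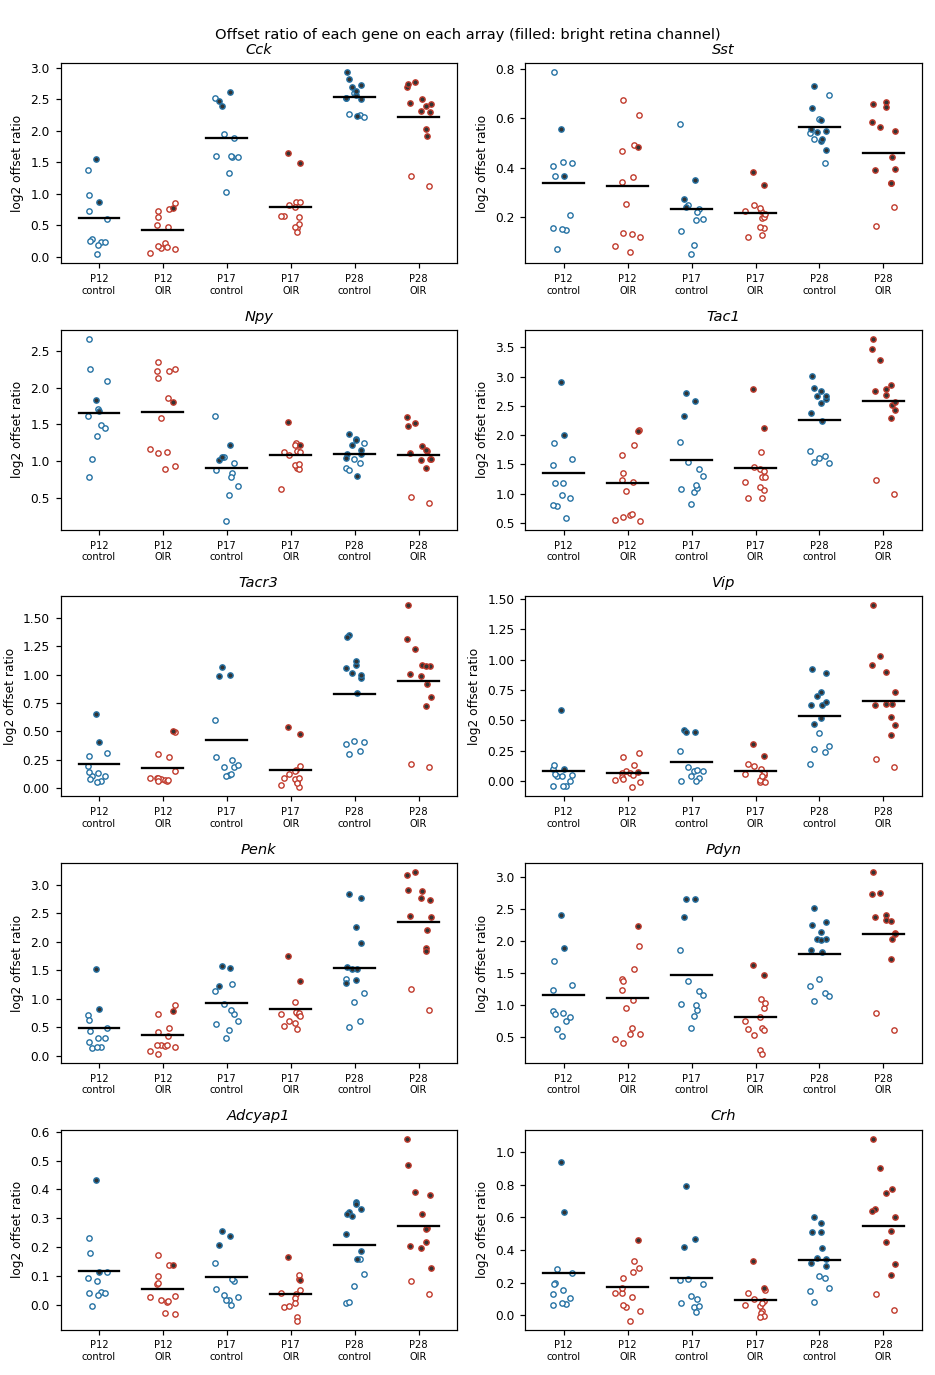
Offset ratio (log2, retina over reference, vertical axes with their own scales) of the 10 genes on the 77 arrays, by group on the horizontal axes. Each circle is 1 mouse, blue for control and red for OIR, filled where the retina channel was bright, and the horizontal lines are group means. Cck in P17 OIR mice has a mean of 0.79 against 1.88 in P17 controls. For Tac1, Tacr3, Vip, Pdyn, Adcyap1 and Crh, all bright arrays of each P28 group lie above all its dim arrays. For the other genes this holds in P28 OIR mice only.

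On P17, the contrast with which the genes were chosen, 9 of the 10 genes had a lower mean in OIR than in control mice, with a median difference of −0.12. In the offset ratio Cck differed most, by −1.09, while in the authors' ratio Tacr3 differed more. For Cck, 11 of the 13 OIR arrays were below the lowest control array. Within each of the 6 slides that held both groups, Cck was lower in OIR mice, with differences between −1.25 and −0.86. Without the bright arrays the difference was −1.03, and in the authors' ratio −1.23. In the retina channel alone, the log2 intensity of Cck was 6.97 to 7.98 in OIR and 8.45 to 9.10 in control mice, so that the groups did not overlap. In the offset ratio they did overlap, and the share of all probes without overlap is not given.

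Pdyn and Tacr3 were also lower in OIR mice on P17 within all 6 slides. Pdyn was 0.24 to 1.62 with a median of 0.75 in OIR mice and 0.64 to 2.66 with a median of 1.19 in controls, a difference of −0.65. Its ranges overlapped, and 5 OIR arrays were below the lowest control. Tacr3 was 0.01 to 0.54 with a median of 0.09 in OIR mice and 0.11 to 1.07 with a median of 0.22 in controls, a difference of −0.27. The Tacr3 probe was well above background on 4 of 13 OIR and 10 of 12 control arrays. The size of both differences depended on the values used. Without the bright arrays Pdyn and Tacr3 differed by −0.42 and −0.13, and in the authors' ratio by −1.15 and −1.74. Npy was the 1 gene with a higher mean in OIR mice, by 0.18, and in the retina channel alone its difference was 0.48, while that channel also put Sst, Tac1 and Penk above 0, by 0.13, 0.11 and 0.05. The remaining 6 genes differed by −0.14 to −0.02 in the offset ratio.

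Marker genes of inner retinal neurons had lower means in OIR mice on the same arrays. Of the amacrine cell markers, 18 of 20 were lower on P17, with a median of −0.28, and the mean over the list was 0.87 to 1.32 in OIR and 0.76 to 1.76 in control mice. The median difference was −0.32 for 16 ganglion cell and −0.36 for 15 bipolar cell markers, against −0.003 for all genes. Glial markers also moved on these arrays, with 7 of 8 Müller glia markers lower (median −0.36) and 6 of 7 markers of astrocytes and reactive glia higher (median 0.84). On P17, 17 of 20 amacrine cell markers were well above background on a share of 0.5 or more of the OIR arrays, against 18 in controls. The part of these neurons and glia in the Cck, Pdyn and Tacr3 values was not tested.

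**Figure D2:**
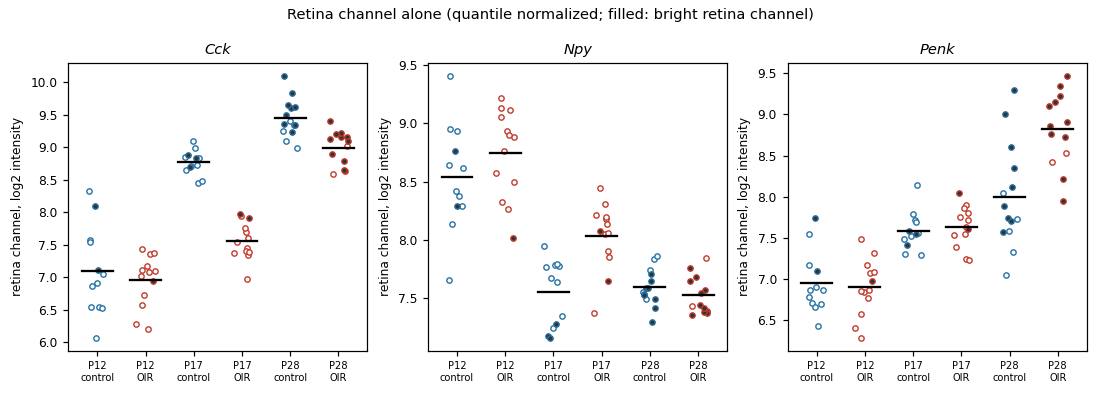
Log2 intensity of the retina channel (quantile normalized between arrays, vertical axes) of Cck, Npy and Penk by group, with 1 circle per mouse, filled where the channel was bright, and lines for group means. The Cck values of P17 OIR mice, 6.97 to 7.98, lie below all P17 controls, Npy is highest on P12, and Penk is highest in P28 OIR mice.

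At the end of hyperoxia, on P12, no difference between OIR and control mice was detected for the neuropeptide genes. None of the 10 genes passed the test, with 0 at an unadjusted p under 0.05 (moderated statistics of limma with Benjamini-Hochberg adjustment over all 55681 probes), against 0.0233% of all probes called. The differences ran from −0.18 for Cck to 0.00 for Npy, with a median of −0.06, and the groups overlapped for all 10 genes. For Cck the 95% interval was −0.50 to 0.14 around −0.18, and for Penk it was −0.41 to 0.15 around −0.13. The widest interval was that of Tac1, −0.67 to 0.33. Within the 7 slides that held both groups, differences of both signs were seen for all 10 genes.

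Npy was high at this age. Its offset ratio on P12 was 0.79 to 2.66 with a median of 1.65 in control and 0.90 to 2.35 with a median of 1.80 in OIR mice. The means were 1.66 and 1.67, a difference of 0.00 with an interval of −0.42 to 0.43. Vip, Adcyap1, Tacr3 and Crh were close to background on P12, being well above it on 2 to 7 of the 13 OIR and on 3 to 7 of the 12 control arrays.

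On P28, long after the return to room air, again none of the 10 genes passed the test in limma, against 0.0611% of all probes called. The 4 genes at an unadjusted p under 0.05 were Penk, Cck, Sst and Crh. Penk was 0.79 to 3.23 with a median of 2.45 in OIR and 0.50 to 2.84 with a median of 1.44 in control mice. The ranges overlapped, and 11 of 13 OIR mice were above the control median. The difference was 0.81 ± 0.27 (SE) on the log2 scale with an interval of 0.25 to 1.37 (p = 0.00630, adjusted p = 0.544). Within the 3 slides that held both groups, Penk was higher in OIR mice by 0.40 to 1.07, and it was 0.70 higher when only the 11 and 9 bright arrays were kept. Among the 2 dim OIR and 5 dim control arrays, which shared no slide, it was 0.08 higher. In the authors' ratio the difference was 0.22, and −0.05 with the slide as a block.

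Cck was lower in OIR mice on P28 by 0.31 ± 0.15 (SE), where the difference of −0.31 had an interval of −0.61 to −0.01 (p = 0.0451, adjusted p = 0.668). Of the 13 OIR mice, 10 were below the control median and 4 below the lowest control. In the retina channel alone Cck passed the test, as the only 1 of the 10 genes, against 0.286% of all probes called. It was 8.59 to 9.40 with a median of 9.10 in OIR and 8.997 to 10.1 with a median of 9.38 in control mice, and the difference was −0.46 with an interval of −0.67 to −0.25 (adjusted p = 0.0471). With the slide as a block in that channel, the difference was −0.48 (adjusted p = 0.0159). In the offset ratio with the slide as a block, it was −0.18 (adjusted p = 0.498), and in the authors' ratio −0.40 (adjusted p = 0.803), or 0.01 with the slide as a block. Without the bright arrays the difference was −1.17 (adjusted p = 0.00483), over 2 OIR and 5 control arrays that shared no slide, and over the bright arrays alone it was −0.21 (adjusted p = 0.574). Without the bright arrays 4564 of all 55681 probes were called. Rod cell markers had lower means in OIR mice for 10 of 10 genes in the offset ratio (median −0.35) but higher means for 10 of 10 in the retina channel alone (median 0.11), and their part was not tested.

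Sst differed by −0.10 and Crh by 0.20, with adjusted p-values of 0.665 and 0.658. The differences of Tac1, Pdyn, Vip, Tacr3, Adcyap1 and Npy were 0.31, 0.32, 0.13, 0.11, 0.06 and −0.01 and each had an interval that included 0. Without the bright arrays Tac1 and Pdyn turned to −0.50 and −0.47, and these passed the test together with Cck, Npy (−0.53) and Sst (−0.35). In that setting 4564 of all 55681 probes were called, against 34 with all arrays. Among marker lists, 1 of 8 microglial genes, Csf1r, was called on P28, higher by 0.41, and none of the 20 amacrine and 16 ganglion cell markers were, with medians of −0.001 and 0.03 and with 2 and 1 genes at an unadjusted p under 0.05.

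**Figure D3:**
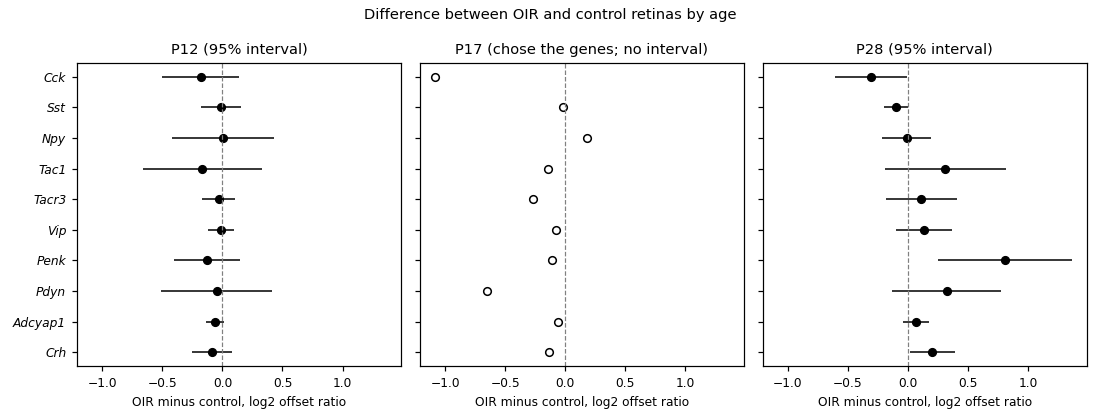
Difference of the OIR from the control mean in log2 offset ratio (horizontal axis) of the 10 genes on P12, P17 and P28, where horizontal bars are 95% intervals on P12 and P28 and the open circles of P17 carry none, since that contrast chose the genes. Cck lies at −0.18, −1.09 and −0.31, and Penk at −0.13, −0.11 and 0.81.

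The difference between OIR and control mice was also compared between P28 and P12. None of the 10 genes passed this test in limma, against 0.0557% of all probes, and 2 had an unadjusted p under 0.05. For Penk the change was 0.94 ± 0.32 (SE) with an interval of 0.30 to 1.57 (adjusted p = 0.741), and for Crh it was 0.29 with an interval of 0.04 to 0.54 (adjusted p = 0.741). For Cck it was −0.13 with an interval of −0.57 to 0.31.

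More of the neuropeptide genes passed the test between ages than between oxygen groups. In control mice 8 of the 10 genes passed the test between P12 and P28, 7 higher and 1 lower on P28, against 22.5% of all probes and 30.8% of genes by their brightest probe. The median of the 10 genes was 0.54, and that of all genes 0.00. Without the bright arrays 4 of 10 were called, all higher, against 7.24% of all probes and 11.01% of genes. With the slide as a block 4 of 10 were called, 3 higher and 1 lower, against 11.6% of all probes and 17.8% of genes. Lens markers were also unequal between the ages, with a mean over 8 genes of −0.01 to 1.06 on P12 and 0.01 to 3.55 on P28 in controls, and their part was not tested.

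Cck rose by 1.92 ± 0.15 (SE) between P12 and P28 in control mice, or 3.79-fold on the scale of the offset ratio (adjusted p = 8.5e-14), and the lowest P28 array was above the highest P12 array. The share of all probes that separated the ages in this way is not given. The rise was 1.88 among dim arrays alone, 1.65 with the slide as a block and 2.36 in the retina channel alone, and it was 1.47 to 1.98 within the 5 slides that held both ages. In the authors' ratio Cck was 0.79 higher and did not pass the test (adjusted p = 0.224), as it did not with the slide as a block in that ratio, where it was 1.36 higher (adjusted p = 0.115). At the Cck probe the reference channel was well above background on 1 of 12 P12 and 12 of 14 P28 control arrays, and the part of this in the authors' ratio was not tested.

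Tacr3 and Vip rose in control mice under every one of the 12 other settings. Tacr3 was 0.05 to 0.65 with a median of 0.14 on P12 and 0.30 to 1.35 with a median of 0.98 on P28, a rise of 0.62 ± 0.12 (adjusted p = 8.8e-05). Of the 14 P28 arrays, 9 were above the highest P12 array. Vip was −0.04 to 0.59 with a median of 0.05 on P12 and 0.14 to 0.92 with a median of 0.57 on P28, a rise of 0.45 ± 0.09 (adjusted p = 2.4e-04). All 14 P28 arrays were above the P12 median, and 7 were above the highest P12 array. The probes went from well above background on 5 and 3 of 12 arrays to 14 of 14 for both genes. The size depended on the arrays, since among dim arrays the rises were 0.22 and 0.24 and in the authors' ratio, which holds no offset, 2.33 and 2.68.

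Npy fell with age. On P28 its offset ratio in control mice was 0.80 to 1.37 with a median of 1.10, and all 14 arrays were below the P12 median of 1.65, although the ranges overlapped. It fell by 0.56 ± 0.16 (adjusted p = 0.00875), by 0.78 with the slide as a block and by 0.95 in the retina channel alone. The fall was 0.23 to 1.69 within the 5 slides, written as differences of −1.69 to −0.23. Among dim arrays alone the difference was −0.63 and did not pass the test (adjusted p = 0.182).

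The opioid precursors and Tac1 were higher on P28 as well, by amounts that were smaller with the slide as a block. Penk was 0.12 to 1.52 with a median of 0.37 on P12 and rose by 1.05 ± 0.22 (adjusted p = 4.1e-04). The rise was 0.55 among dim arrays (adjusted p = 0.0140), and 0.53 with the slide as a block (adjusted p = 0.0635). Tac1 was 0.59 to 2.90 with a median of 1.18 on P12 and 1.52 to 3.02 with a median of 2.46 on P28, and it rose by 0.91 ± 0.25 (adjusted p = 0.00544). Pdyn rose by 0.63 ± 0.23 (adjusted p = 0.0376), and this call was lost when any of 14 of the 52 arrays of the fit was left out (adjusted p = 0.0542 to 0.0742). With the slide as a block, Tac1 and Pdyn were 0.44 and 0.17 higher, and neither passed the test. The other probe of Pdyn was well above background on 0 of 12 and 1 of 14 arrays and gave no usable level.

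Sst rose by 0.22 ± 0.07 (adjusted p = 0.0106), with 0.07 to 0.79 on P12 and 0.42 to 0.73 on P28. Its probe was printed 10 times per array, and the SD of these spots had a median of 0.07. The SD between control mice was 0.20 on P12 and, close to that of the spots, 0.08 on P28. Its call was lost in 9 of the 12 other settings, where the difference was 0.14 to 0.30. Adcyap1 and Crh were 0.09 and 0.08 higher on P28 and did not pass the test (adjusted p = 0.173 and 0.571).

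In OIR mice 9 of the 10 genes passed the test between P12 and P28, 8 higher and Npy lower, against 38.9% of all probes and 48.8% of genes. With the slide as a block 5 of 10 were called, against 10.7% of all probes and 15.8% of genes, and these were Cck, Tacr3, Vip, Penk and Npy. Penk was 0.03 to 0.90 with a median of 0.19 on P12, and 12 of the 13 P28 arrays were above the highest of these. It rose by 1.99 ± 0.22 (adjusted p = 1.1e-09) and by 1.17 with the slide as a block. Cck rose by 1.79 ± 0.15 (adjusted p = 5.0e-13), and Npy fell by 0.58 ± 0.16 (adjusted p = 0.00329). Without the bright arrays, 2 P28 OIR arrays were left and none of the 10 genes passed, with 0.80 for Cck and 0.66 for Penk.

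**Figure D4:**
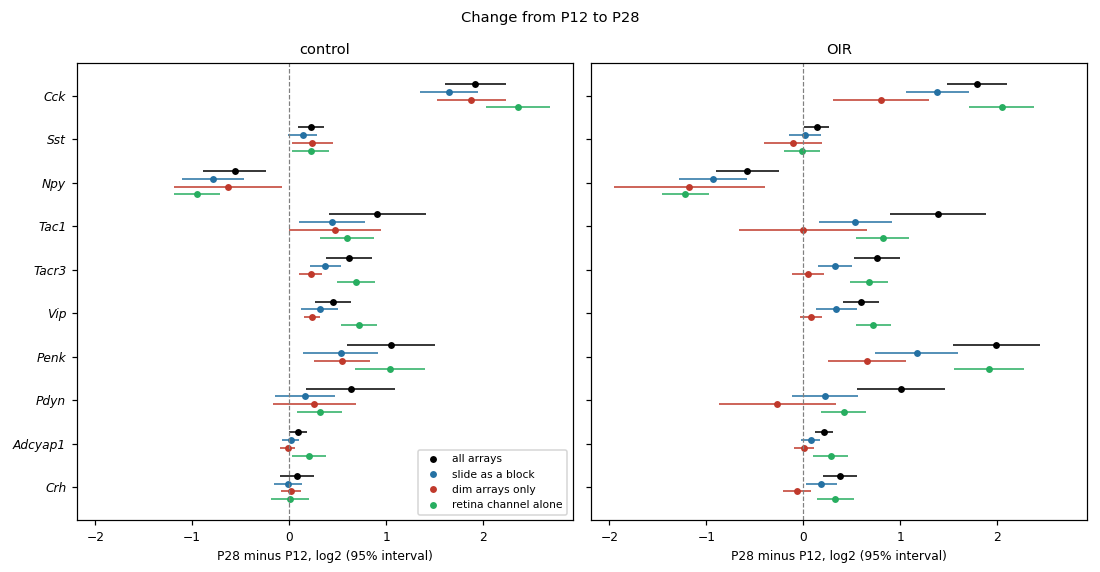
Change from P12 to P28 (log2, horizontal axes, bars are 95% intervals) of the 10 genes in control mice on the left and OIR mice on the right, with all arrays, the slide as a block, the dim arrays only, and the retina channel alone in different colors. In controls Cck lies between 1.65 and 2.36 in these 4 settings, Npy lies below 0, and Tac1 and Pdyn come closer to 0 with the slide as a block.

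Genes of peptide storage and processing, receptors, other peptides and breakdown enzymes were counted as lists. Of 18 processing genes, 9 were higher and 2 lower on P28 in control mice, with a median of 0.41, against 30.8% of all genes called. Scg2, encoding secretogranin II of dense-core vesicles, rose by 1.62 (adjusted p = 6.0e-06), and Ptprn, a protein of the vesicle membrane, rose by 0.76 (adjusted p = 4.0e-06). Both passed with the slide as a block and among dim arrays. Qpct, which forms N-terminal pyroglutamate, rose by 0.79, and Pcsk1n, an inhibitor of the precursor convertase, fell by 0.77, but neither passed in those settings, and Pcsk1n was 0.07 higher among dim arrays. With the slide as a block, 5 of the 18 were higher and 1 lower, against 17.8% of all genes called.

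Of 23 receptor and binding protein genes, 5 were higher and 3 lower in controls, a share near the 30.8% of all genes called, with a median of 0.01, and with the slide as a block or among dim arrays none of the 23 passed, with 3 and 2 at an unadjusted p under 0.05. The largest changes that passed were −1.50 for Tacr2, −1.46 for the opioid receptor Oprm1, −0.79 for the somatostatin receptor Sstr5 and 0.44 for Crhbp, which binds the Crh peptide. Among 35 other peptide genes, 5 were higher and 1 lower, a smaller share than the 30.8% of all genes. Tac2, which encodes neurokinin B, the ligand of Tacr3, rose by 1.46 (adjusted p = 2.3e-12), by 1.20 with the slide as a block and by 1.43 among dim arrays. Cartpt rose by 1.10 and Nmb by 0.54, and both passed in these settings too, while Pnoc fell by 0.17 and did not pass among dim arrays. Of 10 peptide breakdown genes, 1 was higher and 3 were lower, against the same 30.8%, with Ece2 higher by 0.55.

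Amacrine cell markers gave 6 higher and 1 lower of 20 on P28 in controls, a share near the 30.8% of all genes called, with a median of 0.22. Gad1 and Gad2, the enzymes of GABA synthesis, rose by 1.36 and 0.72, and Dab1 fell by 0.87, but Gad1 did not pass among dim arrays (adjusted p = 0.0601). The mean over the list was 0.99 to 1.52 on P12 and 1.30 to 1.75 on P28, and its part in the change of the peptide genes was not tested. None of the receptor, other peptide, processing and breakdown genes passed the test in limma between OIR and control mice, with 1, 1, 0 and 0 genes at an unadjusted p under 0.05 on P12 and 2, 4, 1 and 0 on P28.

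The genes whose values varied most like those of Cck were named by Pearson's r over the 77 arrays, after the mean of each group was taken off. These were Thrsp (r = 0.91), Scn2b (0.91), Tac2 (0.90), Pcnx2 (0.90) and Adra2c (0.90), and the least alike were Reep4 (−0.84), Mov10 (−0.84), Kif1c (−0.83), Mfsd10 (−0.83) and Myo3b (−0.83). Among the neuropeptide genes Pdyn (0.89) and Tac1 (0.87) were nearest and Npy (0.63) was farthest. With the mean of each group and brightness class taken off instead, Pdyn and Tac1 had 0.83 and 0.77. Npy then had 0.60, and Crh (0.39), Vip (0.47), Adcyap1 (0.49) and Penk (0.58) were farther. The arrays share their brightness, and Cck itself had r = 0.76 with the log2 signal percentile of the array. In the retina channel alone, where this r was 0.38, the most alike genes were Fgf1 (0.86), Rgs10 (0.86), Gm4792 (0.84), Scn2b (0.82) and Tspyl4 (0.81), and Pdyn, Tac1 and Npy had 0.76, 0.73 and 0.23.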

How the data were processed

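Retinal RNA of each mouse and a universal reference were labelled with different dyes and hybridized to Agilent arrays with 62976 spots. Per the file headers, the authors extracted spot signals and local backgrounds as intensity values with Feature Extraction. The table that the authors deposited holds log2 ratios of Cy3 to Cy5 processed signals. For the offset ratio, median signals were corrected by normexp (offset 50) and normalized by loess within arrays in limma (version 3.58.1). Control spots had weight 0, outlier spots were left out, and spots of a probe were averaged. A gene was represented by its brightest probe. No filter was applied. The number of probes well above background ranged from 13765 to 34306. As the arrays give no counts, their number limits the precision.

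OIR and control mice were compared with limma on P12 and on P28. Ages were compared in 1 model of the 4 groups on P12 and P28. Probes were called at an adjusted p under 0.05 (Benjamini-Hochberg, 55681 probes). The same fit was also run on simulated arrays with known shifts and independent noise. These held no slide, brightness or litter structure, so that the run cannot show how such structure changes the calls. The genes, the marker lists and the tests were chosen with earlier results of these data known. The genes named were the 10 genes, at most the 4 largest called changes per list and contrast, and the 5 most and 5 least like Cck. The alternatives were the authors' ratio, no background subtraction, an offset of 0, the retina channel alone, the slide as a block, 1 fit over 6 groups, array weights, a filter on dim probes and each array left out. Settings on the bright arrays, and the slide block with the retina channel or the authors' ratio, were added after seeing the data. A further gene of the amacrine cell list that met the rule for named genes is not reported here.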

Additional observations from a re-analysis of the deposited data

How the results depend on the processing

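No paired analysis was possible because the mouse numbers of all arrays differ. No gene was called in any of the 12 alternatives on P12, where the filter on dim probes left 7 of the 10 genes, or for the change of the OIR effect between the ages. On P28 it was 0, but 1 in the retina channel alone with or without the slide as a block, and 5 without the bright arrays, where 2 OIR and 5 control arrays on different slides remained and batch and group cannot be told apart. Those 5, all lower in OIR mice, were Cck, Sst and Npy and, with their direction turned, Tac1 (−0.50) and Pdyn (−0.47). Without the bright arrays 4564 of all 55681 probes were called on P28, against 34 with all arrays. In the retina channel alone 159 probes were called, and 227 with the slide as a block in that channel. Between P12 and P28 in controls, 8 genes were called, against 4 in the authors' ratio, 3 with the slide as a block in that ratio, 4 with the slide as a block, 4 without the bright arrays and 5 with the brightness class as a block. Of all 55681 probes, 12507 were called, and in these settings 15218, 6751, 6441, 4030 and 7303, in that order. In OIR mice 9 genes were called, against 5 with the slide as a block, 5 with the brightness class as a block, 3 in the authors' ratio with the slide as a block and 0 without the bright arrays. Of all probes, 21658 were called, and in these settings 5978, 5223, 5772 and 1011, in that order. Of the genes called between the ages in OIR mice, the direction turned for Tac1 (−0.0049), Pdyn (−0.27) and Crh (−0.064) without the bright arrays, where the uncalled Sst also turned (−0.11), and for Tac1 (−0.10) and Pdyn (−0.52) in the authors' ratio with the slide as a block, and the cause was not tested. With each array left out in turn, the counts were 0 to 0 on P12, on P28 and for the change between the ages, 7 to 9 in controls and 9 to 10 in OIR mice, and on P17 8 to 9 genes had a lower mean in OIR mice. The Pdyn call in controls was lost without any of 7 P12 and 7 P28 mice, with a difference of 0.57 to 0.62. Adcyap1 passed in controls without 1 P12 mouse (0.12, adjusted p = 0.0423 in limma), and Sst passed in OIR mice without 1 P12 or 1 P28 mouse (0.16 each, adjusted p = 0.0404 and 0.0461 in limma). With array weights, 10 genes were called in both groups, against 21460 of all 55681 probes in controls and 26593 in OIR mice. The number of genes lower on P17 was 6 to 9 in all alternatives, with 7 of the 10 genes left by the filter on dim probes. Signal close to background limits Vip, Adcyap1, Tacr3 and Crh on P12 and P17.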
